A study of Homo sapiens and Mus musculus with 12 samples.

Results

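The phagocyte receptor, signalling and oxidase genes are 40 named genes of the machinery by which phagocytes sense microbes, take up opsonised particles and make reactive oxygen. They were taken from a list of names by a rule that uses no measured values. The list was, however, chosen with earlier results of these data known. All 40 were found among the 20018 protein-coding genes of GENCODE release 44 on GRCh38. The genes comprise 10 Toll-like receptors and co-receptors, 6 adaptors and kinases of the Toll-like receptor pathway, 5 Fc receptor genes, 5 cytoplasmic kinases and phospholipases, 4 genes of the NADPH oxidase, 5 TREM and lectin receptors with their adaptor, 3 receptors for colony-stimulating factors, and an integrin chain with an inflammasome sensor. A gene was counted as having a peak when a peak touched the gene body or the 10000 bp on either side.

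Binding was measured by ChIP-seq with 1 library per condition. SPI1 and GFI1 were precipitated from THP1 cells, a human monocytic leukemia line for which the labels name no treatment. LSD1 and GFI1 were precipitated from Cas9-expressing K562 cells, a human leukemia line with erythroid features, that carried a non-targeting guide (sg-NT), and GFI1 also from K562 cells that carried a guide against LSD1 (sg-LSD1). Both lines were crosslinked with DSG followed by formaldehyde, with 5 μg of antibody for each ChIP. The peak lists hold binding sites and no expression values, so neither the identity of the cells nor the loss of LSD1 in sg-LSD1 cells can be checked from them. LSD1 was measured in K562 cells and SPI1 in THP1 cells, so factor and cell line cannot be told apart in any comparison between these 2 lists.

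SPI1 (PU.1) is the transcription factor on which the formation of monocytes and granulocytes depends, and it recognises a purine-rich sequence with a GGAA core. GFI1 is a zinc-finger repressor that binds an AATC core and recruits the histone demethylase LSD1 (KDM1A) to its sites. Toll-like receptors signal through the adaptor MYD88 and the IRAK kinases. Activating Fc receptors and TREM receptors signal through the adaptor chains encoded by FCER1G and TYROBP and the kinase SYK, and the NADPH oxidase makes superoxide from a membrane cytochrome and cytosolic subunits.

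The SPI1 list held 1846 peaks, the GFI1 list of THP1 cells 3461, the LSD1 list of sg-NT K562 cells 6548, and the GFI1 lists of K562 cells 498 with sg-NT and 160 with sg-LSD1. Fold is the pileup at the summit over the local background, −log10 p is the authors' Poisson p-value at the summit, and the number of fragments over the summit was solved from both. The median number of fragments over a summit lay between 11 and 13 in the 5 lists, so a gene without a peak had no site called at this depth and is not shown to be unbound. No value has a replicate, and no test between libraries was made. The intervals of shares are 95% Wilson intervals and those of fragments are exact 95% Poisson intervals, and both cover counting error only.

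The sequences under 3 SPI1 summits are shown first because they hold the GAGGAAGT core upstream of a member gene's canonical transcript. Their summits lie at most 1081 bp from its start, and that of TLR4 lies inside the annotated gene body. Each is from GRCh38, plus strand, with the core in capitals (ACTTCCTC is the same core on the minus strand).
NCF1, chr7:74773923-74773972: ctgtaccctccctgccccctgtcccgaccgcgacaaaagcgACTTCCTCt
TYROBP, chr19:35909351-35909400: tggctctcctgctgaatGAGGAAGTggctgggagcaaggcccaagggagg
TLR4, chr9:117704291-117704320: ttgccgctttcACTTCCTCtcaccctttag

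The next windows are those of sites shared between lists. The SPI1 summit 4424 bp before FCGR2B lay 3 bp from a GFI1 summit, and its window holds the shorter letters GAGGAA, in capitals. The LSD1 summit in FCGR1A lay 2 bp from the GFI1 summit of sg-NT K562 cells, and its window holds neither core.
FCGR2B, chr1:161658694-161658743: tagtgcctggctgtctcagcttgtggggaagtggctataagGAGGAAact
FCGR1A, chr1:149788071-149788120: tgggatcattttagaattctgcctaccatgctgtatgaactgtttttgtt

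Of the GFI1 summits in THP1 cells, that of CLEC4A was alone in holding the AATCAC core, in capitals, and that before NCF1 was the strongest.
CLEC4A, chr12:8123884-8123933: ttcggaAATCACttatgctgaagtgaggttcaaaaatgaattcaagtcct
NCF1, chr7:74768648-74768697: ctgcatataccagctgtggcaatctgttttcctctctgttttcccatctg

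The strongest LSD1 summits at a member gene were a pair at CSF3R, and the capitals mark the longest run of letters that both windows share, which is 17 bases.
CSF3R, chr1:36486547-36486596: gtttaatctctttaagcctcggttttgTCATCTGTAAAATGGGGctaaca
CSF3R, chr1:36474216-36474265: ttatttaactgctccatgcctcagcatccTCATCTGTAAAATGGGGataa

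SPI1 peaks were found at 13 of the 40 genes, which is 32.5% (20.1 to 48), against 7.49% of all protein-coding genes and 6.65% of other genes of the same length class. GFI1 peaks of THP1 cells were also found at 13 genes, against 13.9% of all genes and 12.8% of genes of like length. LSD1 peaks of sg-NT K562 cells were found at 9 genes, or 22.5% (12.3 to 37.5), a share near the 24.3% of all genes and the 24.9% of genes of like length. The share of SPI1 and of GFI1 in THP1 cells thus lay above the background by more than the counting interval, and the share of LSD1 in K562 cells lay within it. With the gene body alone, the GFI1 share of THP1 cells was 17.5% (8.75 to 32.0). Its interval then held the 9.19% of all genes, while the 7.56% of genes of like length lay just below it. With 50000 bp on either side it was 40% (26.4 to 55.4) against 26.2% of all genes and 26.4% of genes of like length, which the interval reached.

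In K562 cells, GFI1 peaks of the sg-NT library were found at 1 gene, FCGR1A, or 2.5% (0.443 to 12.9) against 2.14% of all genes. In the sg-LSD1 library none of the 40 genes had a GFI1 peak, which allows a share of up to 7.5% by the limit of 3 counts and 8.76% by the Wilson interval, against 0.704% of all genes. Both counts differed from the background by less than 1 gene.

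**Figure D1:**
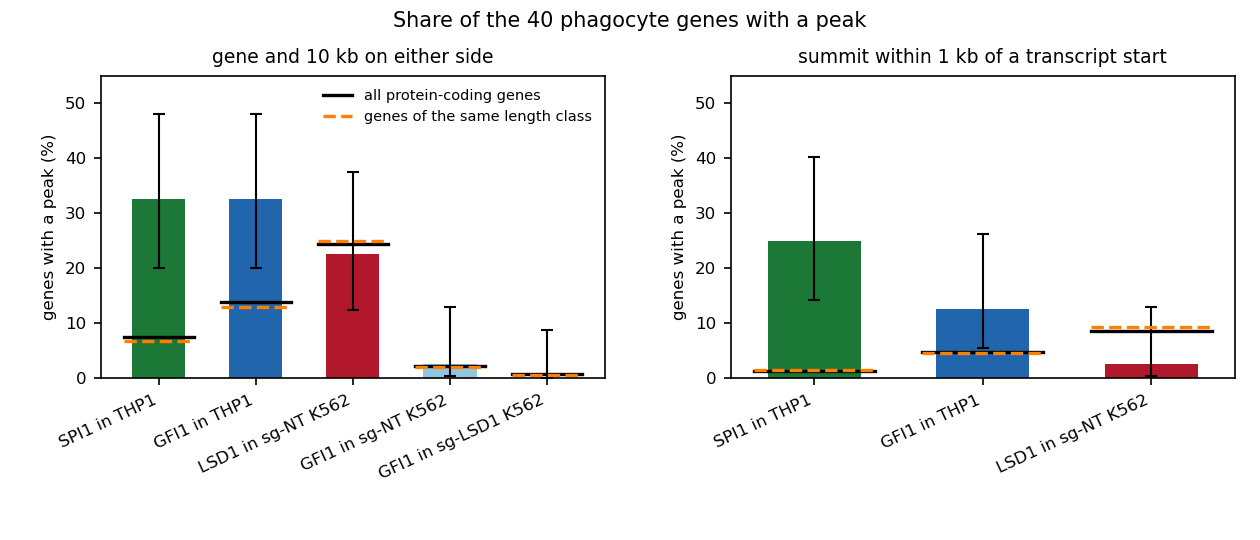
Share of the 40 phagocyte genes with a peak (bars, in percent, with 95% Wilson intervals) in each peak list, beside the share over all 20018 protein-coding genes (black line) and over other genes of the same length class (orange dashed line). The left panel counts peaks in the gene and 10000 bp on either side, where SPI1 and GFI1 in THP1 cells reached 32.5% each, and the right panel counts summits within 1000 bp of a transcript start, where SPI1 reached 25%.

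A SPI1 summit lay within 1000 bp of a start of 10 of the 40 genes, which is 25% (14.2 to 40.2) against 1.32% of all genes. These genes were TLR4, MYD88, FCGR2B, FCER1G, SYK, NCF1, NCF4, CYBA, ITGB2 and NLRP3. A GFI1 summit of THP1 cells did so at 5 genes, or 12.5% against 4.73% of all genes, and these were MYD88, FCER1G, FGR, TYROBP and CLEC4A. An LSD1 summit did so at 1 gene, LYN, or 2.5% against 8.56% of all genes. With a distance of 5000 bp, SPI1 had 11 genes (27.5% against 2.70% of all genes), GFI1 10 genes (25% against 7.13%) and LSD1 3 genes (7.5% against 13.5%). The counts of SPI1 and GFI1 then differed by 1 gene, while the share over all genes remained lower for SPI1 than for GFI1.

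The 40 genes fell into groups by the lists that held them. In THP1 cells, 5 genes had peaks of both SPI1 and GFI1, which is 12.5% (5.46 to 26.1) against 2.40% of all genes, and these were MYD88, FCGR2B, FCER1G, NCF1 and TYROBP. Another 8 had SPI1 without GFI1 and 8 had GFI1 without SPI1. The shares of all genes with SPI1 alone or GFI1 alone were not computed, so these equal counts are not compared. Either factor was thus found at 21 genes, or 52.5% (37.5 to 67.1) against 19% of all genes. LSD1 in K562 cells and GFI1 in THP1 cells met at IRAK2, FCGR1A, LYN and FGR, which is 10.0% (3.96 to 23.1) against 5.39% of all genes. LSD1 in K562 cells and SPI1 in THP1 cells met at NCF4, TREM1 and ITGB2. No gene had all 3, and FCGR1A, with 3 lists, was in the most. The shares of all genes with LSD1 and SPI1, or with all 3, were not computed, so nothing is read from those counts. A peak in any list was found at 23 genes, or 57.5% against 36.4% of all genes, and 17 genes had none. The counts by role given next of genes with a peak in any list can be read against that 36.4%. With at most 10 genes each they are descriptions.

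**Figure D2:**
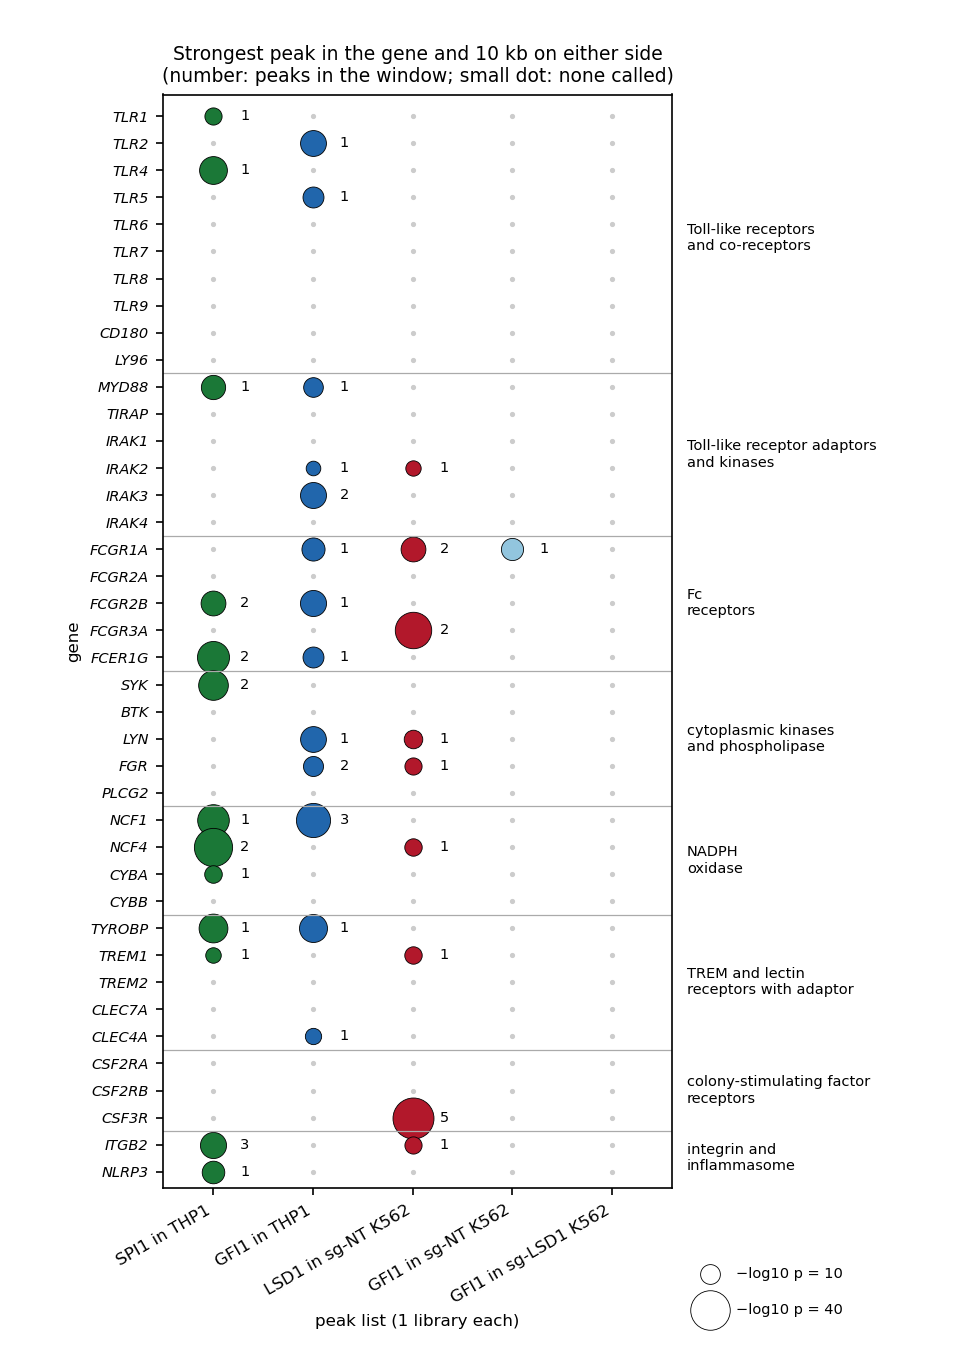
Strongest peak of each of the 40 genes (rows, ordered by role) in each of the 5 peak lists (columns, 1 library each). The area of a circle is proportional to −log10 p, the number beside it is the number of peaks in the window, and a small grey dot marks a gene with no peak called. SPI1 and GFI1 each have circles in 13 rows and LSD1 in 9, CSF3R has 5 LSD1 peaks, and 17 rows hold no circle.

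Among the Toll-like receptors and their co-receptors, 4 of 10 genes had a peak, all in THP1 cells. TLR4, the receptor for lipopolysaccharide, had a SPI1 peak at chr9:117704138-117704440 with a fold of 11.4 at a −log10 p of 19.8 and 15 fragments (8.4 to 24.7). Its summit lay inside the annotated gene, 106 bp before the start of the canonical TLR4 transcript. The start of another annotated gene, ENSG00000285082, was 93 bp away. TLR1, which pairs with TLR2 in sensing bacterial lipopeptides, had a weak SPI1 peak with a fold of 5.39 and 9 fragments (4.12 to 17.1), 3285 bp before the start of its neighbour TLR10. GFI1 rather than SPI1 was found at TLR2 and at TLR5, the flagellin receptor. The TLR2 peak lay in intron 2 at chr4:153688591-153688976 with a fold of 9.80 and 16 fragments (9.15 to 26.0), and the TLR5 peak in intron 4 at chr1:223133858-223134303 with a fold of 7.41 and 10 fragments (4.80 to 18.4). TLR6, TLR7, TLR8 and TLR9, the receptor-like CD180, and LY96, which encodes the MD-2 partner of TLR4, had no peak in any list.

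Among the adaptors and kinases downstream of these receptors, 3 of 6 genes had a peak. MYD88, the adaptor of most Toll-like receptors, had a SPI1 summit 14 bp inside its exon 1, with a fold of 9.26 at a −log10 p of 15.1 and 12 fragments (6.20 to 21.0). A GFI1 peak with a fold of 6.74 and 9 fragments (4.12 to 17.1) lay 819 bp before the same start and 833 bp from the SPI1 summit, and it was nearer to the start of the adjoining gene ACAA1. IRAK3, which encodes a kinase-like protein that restrains this pathway, had GFI1 peaks 2016 bp before its start (fold 9.90, 16 fragments, 9.15 to 26.0) and in intron 8 (fold 5.44, 9 fragments). IRAK2 was counted through a GFI1 and an LSD1 peak beyond its end, with folds of 4.31 and 4.67, whose summits lay 58 and 4 bp from the start of TATDN2. TIRAP, IRAK1 and IRAK4 had no peak.

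At the Fc receptor genes, 4 of 5 had a peak. FCER1G, the signalling chain shared by several Fc receptors, had a SPI1 peak 730 bp before its start with a fold of 9.16 at a −log10 p of 16.1 and 16 fragments (9.15 to 26.0). A GFI1 peak with a fold of 7.14 and 12 fragments (6.20 to 21.0) overlapped it, with its summit 251 bp before the start and 479 bp from that of SPI1. A stronger SPI1 peak of 34 fragments (23.5 to 47.5) and a fold of 9.59 lay beyond the end of FCER1G, 1467 bp inside the start of TOMM40L.

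FCGR2B, the inhibitory Fc receptor, had SPI1 peaks at its start (fold 8.74, 17 fragments, 9.90 to 27.2, summit 88 bp inside exon 1) and 4424 bp before it (fold 8.41, 17 fragments). At the second of these GFI1 had a fold of 8.87 and 20 fragments (12.2 to 30.9). The 200 bp at each of these 3 summits recur with 100% identity at or near FCGR2C. Reads that lie wholly within these 200 bp cannot be told apart between the 2 genes. No peak of these lists overlapped the copy, and which gene the fragments come from was not tested.

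FCGR1A, the high-affinity IgG receptor, had a site in intron 3 with GFI1 in THP1 cells (fold 7.73, 16 fragments, 9.15 to 26.0), LSD1 in sg-NT K562 cells (fold 8.98, 16 fragments, 9.15 to 26.0) and GFI1 in sg-NT K562 cells (fold 7.93, 12 fragments, 6.20 to 21.0). The sequence at these summits has copies of 98.5% to 100% identity in the related loci FCGR1CP and FCGR1BP on the same chromosome, and all 3 lists also had peaks at both copies. GFI1 of sg-NT K562 cells had 11 fragments at FCGR1CP and 21 at FCGR1BP. In the sg-LSD1 library no peak was called at FCGR1A or FCGR1CP, but one was called at FCGR1BP, with a fold of 9.73 at a −log10 p of 17.4 and 17 fragments. Which of the 3 copies the fragments come from cannot be told, so the missing call at FCGR1A is no measure of lost GFI1 binding at this sequence.

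FCGR3A, the CD16a receptor of natural killer cells and monocytes, had no peak in THP1 cells and an LSD1 peak in K562 cells, 10704 bp from its start and beyond its end, at chr1:161538964-161539313. This peak had a fold of 14.9 at a −log10 p of 34.0 and 31 fragments (21.1 to 44), and 4.37% of the LSD1 list was as strong or stronger. FCGR2A had no peak in any list.

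Among the cytoplasmic kinases and phospholipases, 3 of 5 genes had a peak. SYK, the kinase that binds phosphorylated Fc and TREM adaptor chains, had a SPI1 summit 11 bp before the start of its canonical transcript. This peak had a fold of 12.4 at a −log10 p of 22.5 and 18 fragments (10.7 to 28.4). A further summit lay 5653 bp before the same start, with a fold of 9.97 and 13 fragments (6.92 to 22.2). LYN and FGR, kinases of the Src family, had no SPI1 peak. LYN had a GFI1 summit 4326 bp inside intron 1 with a fold of 10.1 and 14 fragments (7.65 to 23.5). LSD1 in K562 cells lay 60432 bp inside the same intron, 33 bp from the start of another LYN transcript, with a fold of 6.02 and 10 fragments. FGR had GFI1 peaks with folds of 6.06 and 6.87, the second beside the start of AHDC1, and an LSD1 peak in intron 1 with a fold of 5.50. BTK and PLCG2 had no peak.

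Of the NADPH oxidase genes, 3 of 4 had a SPI1 peak, against 7.49% of all genes, and these peaks included the strongest of the set. NCF4, which encodes the p40phox subunit, had a SPI1 peak at chr22:36860631-36861137 with a fold of 18.3 at a −log10 p of 37.4 and 27 fragments (17.8 to 39.3), with its summit 92 bp before the start. Only 3.68% of the SPI1 list was as strong or stronger. A second SPI1 peak of NCF4 lay in intron 2 with a fold of 8.93, and an LSD1 peak of K562 cells in intron 7 with a fold of 5.36 and 10 fragments (4.80 to 18.4). CYBA, the p22phox chain of the membrane cytochrome, had a weak SPI1 peak in intron 1, 314 bp from its start, with a fold of 5.70 and 7 fragments (2.81 to 14.4). CYBB, which encodes gp91phox, the catalytic chain of the same cytochrome, had no peak in any list.

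NCF1, which encodes the p47phox subunit, had a SPI1 summit 63 bp before its start, with a fold of 12.1 at a −log10 p of 25.6 and 25 fragments (16.2 to 36.9). The strongest GFI1 peak of the set lay 5338 bp before the same start, at chr7:74768476-74769117, with a fold of 15 at a −log10 p of 29.9 and 24 fragments (15.4 to 35.7), and weaker GFI1 peaks lay 7931 bp before the start and beyond the end of the gene, with folds of 7.11 and 5.39. The 4 summit sequences of NCF1 have copies of 99.5% to 100% identity at NCF1B and NCF1C on chromosome 7. The SPI1 list also had a peak at the NCF1B copy, with 16 fragments, and the GFI1 list had peaks at the copies of the strongest site, with 26 fragments at NCF1B and 36 at NCF1C. The peaks of NCF1 can therefore belong to any of these 3 loci.

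Among the TREM and lectin receptors, 3 of 5 genes had a peak. TYROBP, which encodes the DAP12 adaptor, had overlapping peaks of SPI1 (fold 11.9, 17 fragments, 9.90 to 27.2) and GFI1 (fold 11.3, 17 fragments, 9.90 to 27.2) in THP1 cells, with summits 1081 and 879 bp before its start and 202 bp apart. Among the 3 overlapping pairs of SPI1 and GFI1 peaks at the 40 genes this was the strongest in both −log10 p values. CLEC4A, a lectin receptor with an inhibitory motif, had a GFI1 peak in exon 1 with a fold of 5.11 and 7 fragments (2.81 to 14.4). TREM1, which amplifies inflammatory signals, had a SPI1 peak with a fold of 4.76 and 6 fragments (2.2 to 13.1) and an LSD1 peak with a fold of 5.36 and 10 fragments, both in intron 3 and not overlapping. TREM2 and CLEC7A, the receptor for fungal glucans, had no peak.

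Of the receptors for colony-stimulating factors, CSF3R, the receptor for G-CSF, had 5 LSD1 peaks in K562 cells, more than any other of the 40 genes, and no SPI1 or GFI1 peak. The strongest LSD1 peak of the whole set lay 3659 bp before its start at chr1:36486394-36486755, with a fold of 19.4 at a −log10 p of 43.0 and 33 fragments (22.7 to 46.3), so that 2.46% of the LSD1 list was as strong or stronger. Another, in intron 4 at chr1:36474042-36474384, had a fold of 17.8 at a −log10 p of 37.0 and 28 fragments (18.6 to 40.5). The other 3 had folds of 6.87 to 7.31 and lay in intron 3 and 6556 and 9850 bp before the start. CSF2RA and CSF2RB, the chains of the GM-CSF receptor, had no peak.

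ITGB2, the β2 integrin chain of phagocyte adhesion receptors, had 3 SPI1 peaks. Its summit at the start, 35 bp before the canonical transcript, had a fold of 9.81 and 14 fragments (7.65 to 23.5), another in intron 3 had a fold of 5.88, and one with a fold of 10.2 lay beyond the end of the gene, nearer to the start of PTTG1IP. An LSD1 peak of K562 cells with a fold of 5.50 lay upstream, 459 bp from the start of SLX9. NLRP3, the inflammasome sensor, had a SPI1 peak with a fold of 8.04 and 13 fragments (6.92 to 22.2), 24 bp from the start of one of its transcripts.

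**Figure D3:**
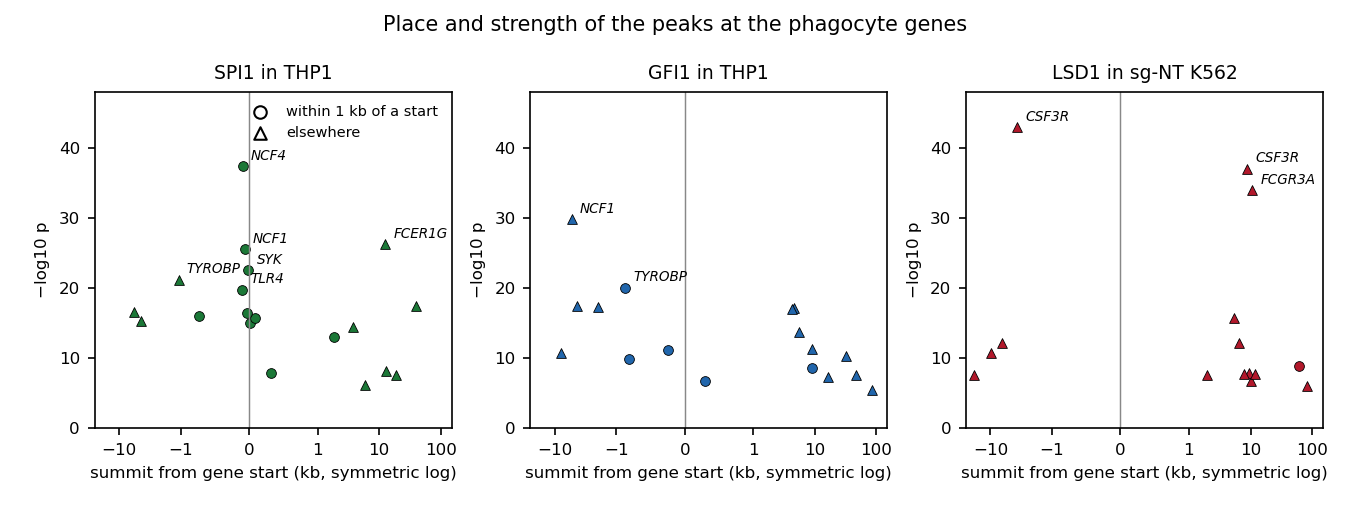
Distance of each summit from the start of the gene's canonical transcript (horizontal axis, kb, symmetric log scale that is linear within 1 kb, with minus before the start) against −log10 p (vertical axis) for SPI1 and GFI1 in THP1 cells and LSD1 in sg-NT K562 cells. Circles are summits within 1000 bp of any transcript start of the gene and triangles are the others, and genes with a −log10 p above 19 are named. The SPI1 peaks crowd at the start, with NCF4 highest at 37.4, while the strongest LSD1 peaks, at CSF3R and FCGR3A, are triangles away from it.

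The 19 SPI1 peaks had medians of 9.26 in fold and 16.1 in −log10 p, against 8.62 and 14.8 over the list, and 13 of them lay above the list's median. The 17 GFI1 peaks of THP1 cells had a median fold of 7.14 against 7.41, and 7 lay above the median −log10 p of the list. The 15 LSD1 peaks had a median fold of 6.02 against 6.99, and 6 lay above its median −log10 p. Of the member peaks, 52.6% of SPI1, 29.4% of GFI1 and 6.67% of LSD1 summits lay within 1000 bp of a start of the gene, where 13.4%, 25.9% and 25.2% of the summits of the 3 lists lay within 1000 bp of a protein-coding start. These shares are not like for like. Member peaks were taken only from windows around genes, whereas the list shares count every peak, also those far from genes.

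**Figure D4:**
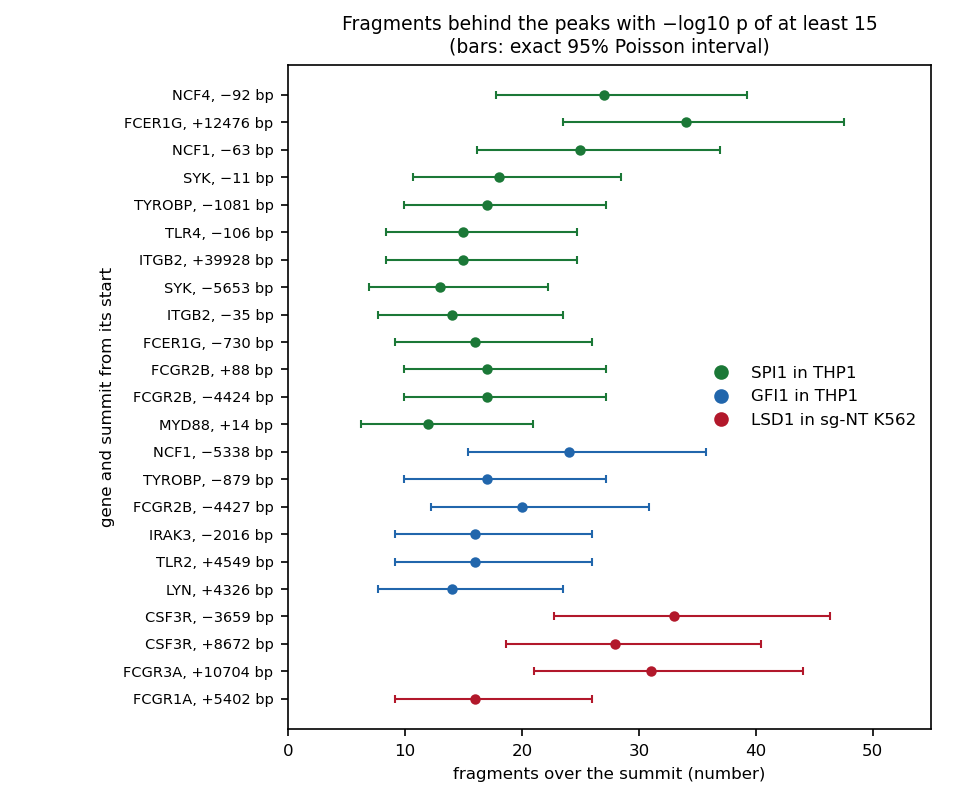
Number of fragments over the summit (points) with exact 95% Poisson intervals (bars) for the peaks of the 40 genes with a −log10 p of at least 15, named by gene and by the distance of the summit from the gene's start in bp. The intervals of most peaks overlap, from 12 fragments at MYD88 for SPI1 to 34 at FCER1G, and 33 and 28 for LSD1 at CSF3R.

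Peaks of SPI1 and GFI1 in the same cells touched each other at 3 of the 19 SPI1 peaks, or 15.8% (5.52 to 37.6), where 10.5% of the whole SPI1 list did. These were 17.6% of the 17 GFI1 peaks, where 5.58% of the GFI1 list did. The 3 places were FCGR2B, TYROBP and FCER1G, with summits 3, 202 and 479 bp apart, against a median of 75 bp over the 193 shared SPI1 peaks of the list. At MYD88 and NCF1 both factors had peaks that did not touch, with the nearest summits 833 and 5275 bp apart. LSD1 peaks of K562 cells touched GFI1 peaks of THP1 cells at 2 of 15, at FCGR1A and at the start of TATDN2 beyond IRAK2. This is 13.3% (3.74 to 37.9), an interval that held the 4.6% of the LSD1 list. No SPI1 peak of a member gene touched an LSD1 peak, where 2.76% of the SPI1 list did.

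The SPI1 core GAGGAAGT, searched on both strands in 50 bp at each summit, was present at 5 of the 19 SPI1 summits, or 26.3% (11.8 to 48.8), as in 26.4% of the SPI1 list and 0.190% of windows 2000 bp away. The sites near NCF1, TYROBP and TLR4 shown above were among these, as was the site beyond FCER1G. The shorter letters GAGGAA, which every full core contains, were present at 12 summits, among them the starts of SYK, ITGB2 and NLRP3. The GFI1 core AATCAC was present at 1 of 17 GFI1 summits, that of CLEC4A, or 5.88% (1.05 to 27) against 10.1% of the GFI1 list and 2.37% of windows 2000 bp away. Neither core was present at any of the 15 LSD1 summits, where 0.321% of the LSD1 list held the SPI1 core and 2.47% the GFI1 core, so nothing is read from these counts of 0.

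RefSeq promoter sequences (GRCh38.p14, 250 bases before to 50 after the start) were matched by symbol for 30 of the 40 genes. The SPI1 core was found in 7 of them, or 23.3%, against 2.59% of all 35116 promoters in the table. These 7 were TLR4, SYK, NCF1 and TYROBP, which had a SPI1 peak, and TLR9, FCGR3A and BTK, which had none. The SPI1 summit of TYROBP lay 1081 bp before its start, beyond the 250 bases searched. The GFI1 core was found in 3, those of TLR8, PLCG2 and NLRP3, or 10.0% against 10.2% of all promoters. The member shares count genes and the table shares count promoters, so they are not like for like. A match is a match of letters and does not show a bound site.

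A further list held 38 genes of the same pathways, also chosen with earlier results of these data known. SPI1 peaks were found at 13 of them, or 34.2% (21.2 to 50.1) against 7.49% of all genes, and 1 of these, TLR10, was counted through the peak that also counted for TLR1. GFI1 peaks of THP1 cells were found at 14, or 36.8% (23.4 to 52.7) against 13.9% of all genes. LSD1 peaks of K562 cells were also found at 14, or 36.8% against 24.3% of all genes, where the share of the 40 genes was 22.5%, and the difference between the lists was not tested. Both factors of THP1 cells had peaks at 8, or 21.1% (11.1 to 36.3) against 2.40% of all genes. Among these 8 were TRAF3, PIK3CD, INPP5D, PTPN6, NOD2, AIM2 and CSF1R. The strongest of these SPI1 peaks was that of INPP5D, the SHIP1 phosphatase that opposes Fc receptor signalling, with a fold of 23.5 and 32 fragments 58 bp before its start. CSF1R, the M-CSF receptor, had SPI1 with a fold of 9.81 and GFI1 with a fold of 17.5 in THP1 cells, where CSF2RA, CSF2RB and CSF3R had neither.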

How the data were processed

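Peak lists of 5 ChIP-seq libraries were analysed, 2 of THP1 and 3 of K562 cells, with 1 library per condition. Of the 12 samples, the inputs and the murine H3K4me1 libraries were not used here. The authors trimmed reads (Trim Galore 0.6.1), mapped them to GRCh38 (Bowtie2 2.5.4), removed duplicates (Picard 3.1.0), called peaks per library with MACS2 2.2.9.1 at p under 1e-05 and removed blacklisted regions. Use of the inputs as MACS2 control is not given in the sources used here. The deposited fold is a ratio of pileup to local background with a pseudocount of 1, and the deposited −log10 p-value and −log10 q-value are those of MACS2 at the summit.

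From these, the pileup at the summits was recovered as whole fragments (100% of peaks, 99.97% in the GFI1 list of THP1 cells). Read totals were not used here. Genes came from GENCODE release 44, with a flank of 10000 bp and promoters of 1000 bp. The share over genes of like length is the mean over non-member genes within 10 classes of gene length, weighted as the members are. Near copies were 200 bp summit windows with a match of at least 97% identity over 90% of their length elsewhere in GRCh38 (BLAST 2.17.0). The members, the 38 further genes and the lists were chosen with earlier results of these data known, and every member is described. A few further genes and 1 summit sequence are not reported here. Peaks of 2 lists were shared at 1 bp or more. Alternatives were peaks with −log10 p from 8 or −log10 q from 2 upwards, other windows, promoter distances, overlaps, cores and length classes. On simulated data, 200 of 200 planted peaks were found in the windows of 20018 genes. Software was samtools 1.23.1, matplotlib 3.10.9, pysam 0.24.0, scipy 1.17.1, numpy 2.4.6 and Python 3.11.15.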

Additional observations from a re-analysis of the deposited data

How the results depend on the processing

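Of 92 values recomputed under alternatives, 77 moved by less than their counting interval or 1.5 times and 15 by more. Counting the gene body alone left 12 SPI1, 7 GFI1 and 7 LSD1 peaks. The GFI1 share in THP1 cells was then 17.5% of the genes, against 9.19% of all genes and 7.56% of genes of like length. Counting 50 kb on either side gave 31 GFI1 peaks in THP1 cells, 30 LSD1 peaks at 47.5% of the genes (41.2% of all genes) and 1 GFI1 peak in sg-LSD1 cells. A −log10 p of at least 8 left 8 LSD1 peaks at 10.0% of the genes, against 19.7% of all genes. With summits at most 200 bp apart, 5.26% of the SPI1 peaks were shared with GFI1. Shorter cores were present at 63.2% of SPI1 summits (43.0% of the list) and 47.1% of GFI1 summits (50.9% of the list), and the GFI1 core in 200 bp at 29.4% (27.8% of the list).

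Chosen after seeing the data, leaving out peaks with a near copy gave shares of 27.5% for SPI1, 25% for GFI1 in THP1 cells, 20% for LSD1 and 0% for GFI1 in sg-NT K562 cells. The shares over all genes were then 7.27%, 13.6%, 23.4% and 2.03%, and the GFI1 interval in THP1 cells was 14.2 to 40.2. Keeping only peaks whose nearest protein-coding start is that of the gene gave 27.5%, 27.5% and 17.5% for SPI1, GFI1 in THP1 cells and LSD1. All genes then gave 5.22%, 9.96% and 17.1%. The cause of these moves was not tested beyond the smaller or larger set of peaks each setting counts. No paired analysis was possible because each condition has 1 library and no list of the numbered mice was used. Depth limits all of this, since sites of fewer than 5 fragments were not called.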

Other observations

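The letters CATCTGTA, part of the run shared by the 2 strongest LSD1 summit windows of CSF3R, were chosen after those windows were seen and were then counted on both strands in every list. They were present within 50 bp at 2 of the 5 CSF3R summits and within 200 bp at 3, and in no other peak of the 40 genes. Over the LSD1 list of sg-NT K562 cells they were present at 171 of 6548 summits, or 2.61% (2.25 to 3.03), against 0.397% (0.303 to 0.520) of windows 2000 bp away. With the list divided by −log10 p into 4 parts of 1637 peaks, from strongest to weakest, the share was 4.58%, 3.18%, 1.83% and 0.855%. In the SPI1 and GFI1 lists of THP1 cells the share within 50 bp was 0.163% and 0.116%, and in the GFI1 list of sg-NT K562 cells 0.201%. At this width none of them was above its windows 2000 bp away. In the GFI1 list of sg-LSD1 K562 cells the letters were present within 50 bp at 1 of 160 summits, or 0.625% (0.110 to 3.45), and in 0 of 320 such windows. Within 200 bp, the GFI1 list of sg-NT K562 cells had them at 6 of 498 summits, or 1.20% (0.553 to 2.60). The share of its windows 2000 bp away was then 0.703% (0.341 to 1.44). Whether these letters lie in a repeated element was not tested, since no repeat annotation was used here.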
